A study of Mus musculus with 80 samples.

Results

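The core pluripotency genes were taken as 9 named genes: Pou5f1, Sox2, Sall4, Utf1, Lin28a, Lin28b, Dppa2, Dppa4 and Dppa5a. They were chosen by symbol, as the rows of the RNA-seq table that carry these names. All 9 were found among 25965 rows, and all 9 were among the 11376 genes that passed the filter on low values (a mean log2 value of 0 or more over the 12 libraries). The H3K9me2 table held 78 bins of 2 kb over these genes, of 1026637 bins in all.

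The cells were E14, a wild-type line of mouse embryonic stem cells (ESCs), and the study followed them as they moved from one culture medium to another. The starting medium held fetal calf serum and the cytokine LIF. The second medium, 2i, was free of serum and held LIF with PD0325901, an inhibitor of the kinase MEK, and CHIR99021, an inhibitor of the kinase GSK3. RNA-seq covered serum ESCs and ESCs at 6 h, 24 h and 72 h after the change to 2i, with 3 replicates each. H3K9me2, a mark of silent chromatin (histone H3 with 2 methyl groups on lysine 9), was mapped by ChIP-seq in serum ESCs, after 24 h in 2i and in cells kept long in 2i (LT2i), with 2 bound libraries and 1 input each. All samples thus came from 1 line, LIF was present throughout, and the labels do not say whether replicates came from separate cultures, so p-values measure the spread between these samples. The study describes replicates of its expression time course as biological, without saying what set them apart, and for the ChIP-seq libraries the spread may be technical. Bulk libraries cannot tell fewer cells of a type from less RNA per cell.

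Oct4 (encoded by Pou5f1) and Sox2 bind DNA side by side and hold ESCs in the pluripotent state, the capacity to form every tissue of the embryo. Sall4 and Utf1 work with them on chromatin, Dppa2 and Dppa4 are a pair of small DNA-binding proteins that keep developmental promoters open, and Dppa5a encodes an RNA-binding protein that is abundant in these cells. Lin28a and Lin28b bind RNA and block the maturation of the let-7 microRNAs, which otherwise repress growth and proliferation genes.

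Values below are log2 expression as the authors deposited them, scaled by the length of each gene and by depth and set to a common upper quartile of 2.51. The depth of the RNA-seq libraries is unknown, so no counting interval is given. Changes are differences of group means on this log2 scale, with the standard error (SE) and the adjusted p of limma, and a gene was called when that p was under 0.05. ESC identity was checked with Nanog, Zfp42, Esrrb, Klf4, Tdgf1 and Fgf4. All 6 passed the filter, and their summed level lay between 9.23 and 9.45 in serum and between 9.98 and 10.18 at 72 h. At 6 h 2 were called higher and 2 lower, and at 72 h 5 higher and 1 lower, beside the shares of all genes given below. Zfp42 was called lower at all 3 times (-0.49, -0.81 and -0.67). Nanog, Zfp42, Esrrb and Klf4 also stand in the list of naive factors below, so the sum is not independent of that list. Of the lists for other cells, 1 of 7 primitive endoderm genes, 1 of 5 mesoderm, 3 of 5 neuroectoderm, 1 of 5 trophectoderm and 2 of 6 fibroblast genes passed the filter. The summed levels of these 5 lists ran from 1.85 to 6.00 in serum and from 1.62 to 5.57 at 72 h. The neuroectoderm sum was 5.64 to 5.72 in serum and at least 6.55 at 6 h. Of its tested genes, Tubb3 was called higher at 6 h (1.11) and Sox1 lower (-0.79), while Nes was not called (-0.63). The part of these lists in the results was not tested.

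A trend with gene span touches several of the values. Relative to the serum mean, the 2276 tested genes with the shortest spans stood above the 2276 with the longest by 1.28, 1.13 and 0.35 in the 3 libraries of 24 h and by 0.22, 0.75 and -0.03 in those of 72 h. In serum and at 6 h the difference lay between -0.16 and 0.08. The short group ends at 6.21 kb and takes in Pou5f1, Sox2, Utf1 and Dppa5a, while Lin28b, at 93582 bases, belongs to the long group, which starts at 57.9 kb. Values with this trend removed are given for Pou5f1, Sox2, Utf1, Lin28b and Dppa5a, and not for the gene lists.

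Of the 9 genes, 5 were called at 6 h, all lower than in serum, where 14.3% of all tested genes were called (8.26% higher and 6% lower). At 24 h 7 were called, 6 lower and 1 higher, against 62.6% of all genes (33.6% higher and 29% lower). At 72 h 7 were again called, 6 lower and 1 higher, against 50.3% (24.5% higher and 25.8% lower). The 9 genes had a median change of -0.45, -1.30 and -0.78 at the 3 times, beside 0.01, 0.10 and -0.01 for all tested genes. Replicates of 7 genes did not overlap serum at each of the 3 times, where 43.8%, 64.2% and 62.5% of all genes did not overlap.

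**Figure D1:**
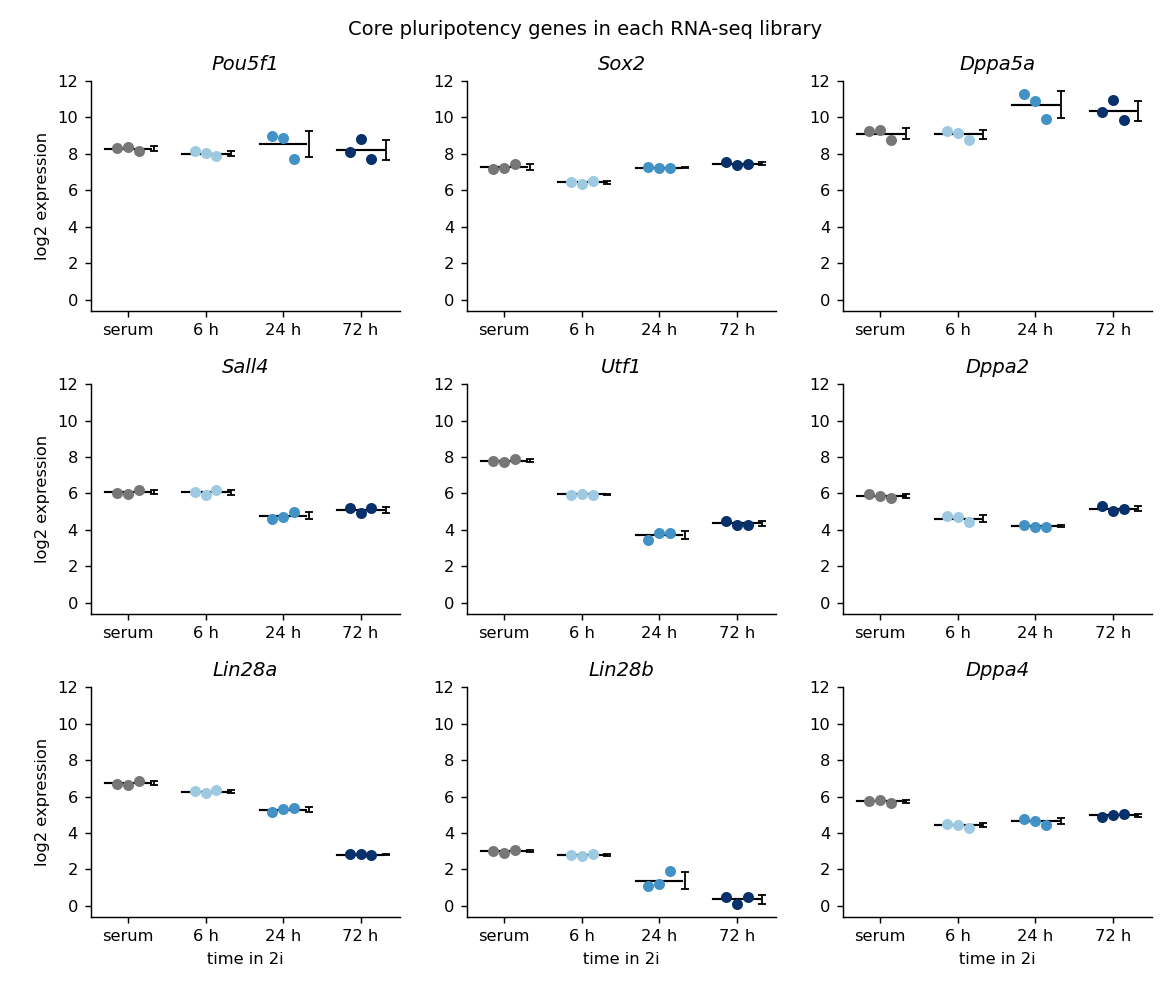
Deposited log2 expression (vertical axis) of each core gene in the 12 RNA-seq libraries, by time in 2i (horizontal axis). Points are libraries, horizontal lines group means and the bars beside them ± 1 SD over 3 replicates. Lin28a ran from a mean of 6.73 in serum to 2.81 at 72 h, while Sox2 dipped to 6.44 at 6 h and stood at 7.25 at 24 h.

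**Figure D2:**
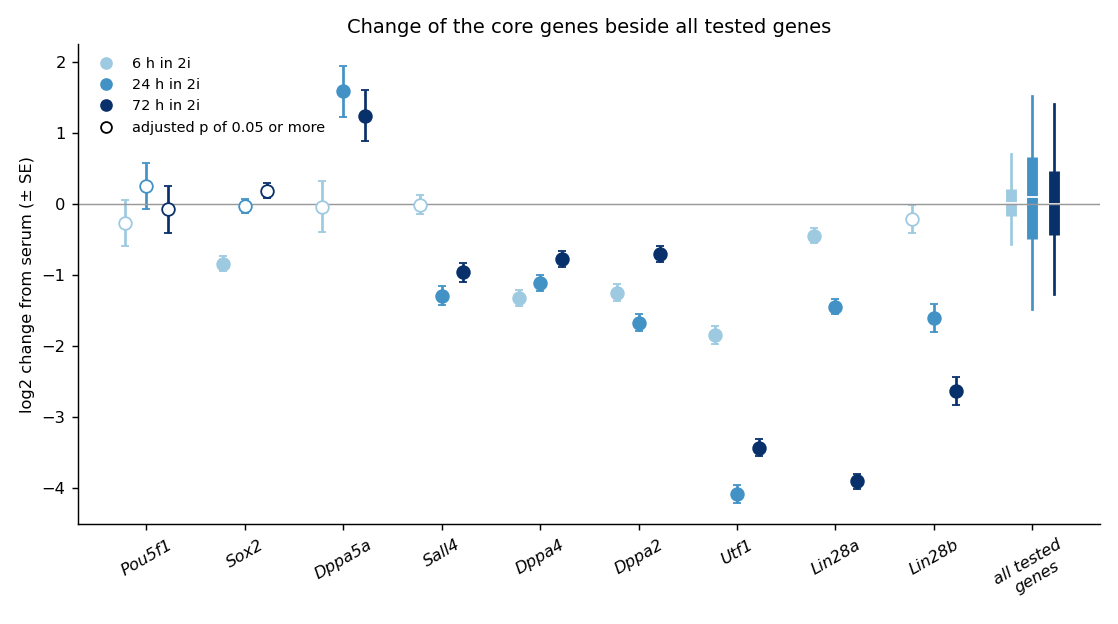
Log2 change from serum (vertical axis, ± SE) of the core genes at 6, 24 and 72 h in 2i, with filled points for an adjusted p under 0.05. The bars at the right show all 11376 tested genes, the thick part from the 25th to the 75th percentile and the thin part from the 5th to the 95th. Utf1, Lin28a and Lin28b lie far below the thin bars at 72 h, and Dppa5a is the core gene called higher.

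Pou5f1 and Sox2, the pair at the centre of the network, ended the time course near their serum levels. Pou5f1 lies at chr17:35506037-35510776 (GRCm38, plus strand). It stood at 8.35, 8.39 and 8.14 in serum, 8.13, 8.02 and 7.89 at 6 h, 9.01, 8.90 and 7.73 at 24 h, and 8.11, 8.80 and 7.73 at 72 h. All 3 libraries of 6 h lie below those of serum. The libraries of 24 h and 72 h spread to both sides of serum and overlap it, and the group SD rose from 0.13 in serum to 0.71 at 24 h and 0.55 at 72 h. The SE of limma is pooled over the 4 groups. At 6 h, where the SD was 0.12, it thus also holds the wider spread of 24 h and 72 h.

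The change of Pou5f1 was -0.28 (SE 0.33, adjusted p 0.72) at 6 h, 0.25 (95% interval -0.46 to 0.97, adjusted p 0.51) at 24 h and -0.08 (-0.80 to 0.63, adjusted p 0.85) at 72 h. The libraries highest and lowest in Pou5f1 at 24 h and at 72 h were also those with the largest and the smallest lead of short genes, and the part of that trend was not tested. With the trend removed the change at 24 h was -0.08. Under quantile normalisation Pou5f1 was called lower, by -0.49 at 24 h (adjusted p 0.00895) and -0.38 at 72 h (adjusted p 0.0350), and without replicate 3 of 24 h it was called higher at that time, by 0.66 (adjusted p 0.0296). The direction of Pou5f1 at 24 h thus differed between settings. The gene has several processed copies in the mouse genome, and reads shared with them cannot be told apart. Gm19553, on its other strand, was listed between -0.64 and 1.98.

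Sox2 (chr3:34650005-34652461, plus strand) overlaps the noncoding gene Sox2ot on the same strand. Sox2ot was listed between -3.74 and -1.79 in all 12 libraries, far below Sox2. Sox2 stood at 7.19, 7.21 and 7.44 in serum, 6.44, 6.34 and 6.53 at 6 h, 7.27, 7.25 and 7.23 at 24 h, and 7.56, 7.41 and 7.44 at 72 h. All 3 libraries of 6 h lie below all others, and those of 24 h and 72 h overlap serum.

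Sox2 thus fell by 0.85 at 6 h (SE 0.10, adjusted p 0.000221), to 55.6% of its serum level, and rose again by 0.81 from 6 h to 24 h (SE 0.10, adjusted p 0.000117). That second comparison was added after the values were seen, and 59.5% of all genes were called in it, 31.5% higher and 28.1% lower. Of the 9 core genes, 7 were called between these times, 2 higher and 5 lower, and 7 did not overlap (61.5% of all genes). Against serum the change was -0.03 at 24 h (95% interval -0.26 to 0.20, adjusted p 0.80) and 0.18 at 72 h (-0.04 to 0.41, adjusted p 0.16). The return at 24 h was incomplete in other settings: Sox2 stood -0.42 below serum with the span trend removed (adjusted p 0.0352) and -0.54 under quantile normalisation (adjusted p 0.0232). The rise from 6 h was 0.40 with the trend removed (adjusted p 0.0477) and 0.36 under quantile normalisation (adjusted p 0.106). From 24 h to 72 h the change of Sox2 was 0.22 (adjusted p 0.13), and 0.44 with the trend removed (adjusted p 0.0541) and 0.55 under quantile normalisation (adjusted p 0.0410).

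The stretches just before the starts of these genes are shown because the core factors are known to act on each other's promoters. RefSeq promoter entries (GRCm38.p6) were found for 5 of the 9 genes, Pou5f1, Sox2, Utf1, Lin28a and Lin28b, with Pou5f1 having 2 starts. The 250 bases before each start were searched on both strands for the octamer bound by Oct4 (ATGCAAAT), for SOX motifs in 2 spellings (ACAAAG and ACAATG), for the GC box (GGGCGG) and for the TCF/LEF motif (CTTTGAT), through which the pathway held down by GSK3 acts. Of 32851 promoter entries, 1.6% held the octamer, 16.5% and 10.7% the SOX spellings, 32.7% the GC box and 3.21% the TCF/LEF motif. The 6 stretches of the core genes held no octamer and no TCF/LEF motif in the spellings searched. Other spellings of these motifs were not searched, so their absence is not shown. Both sequences run 5′ to 3′, with the matches in capitals, a GC box at 45 bases before the Pou5f1 start and a SOX motif at 206 bases before the Sox2 start, between GC boxes at 223 and 111 bases. The stretch before the second Pou5f1 start, not printed, held 1 SOX motif (ACAATG) at 158 bases.
Pou5f1, chr17:35505782-35506031, plus strand: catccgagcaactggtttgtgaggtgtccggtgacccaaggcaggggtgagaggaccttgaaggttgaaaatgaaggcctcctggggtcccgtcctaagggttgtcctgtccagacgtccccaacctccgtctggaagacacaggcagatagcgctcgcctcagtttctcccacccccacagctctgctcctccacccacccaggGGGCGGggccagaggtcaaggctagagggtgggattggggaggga
Sox2, chr3:34649745-34649994, plus strand: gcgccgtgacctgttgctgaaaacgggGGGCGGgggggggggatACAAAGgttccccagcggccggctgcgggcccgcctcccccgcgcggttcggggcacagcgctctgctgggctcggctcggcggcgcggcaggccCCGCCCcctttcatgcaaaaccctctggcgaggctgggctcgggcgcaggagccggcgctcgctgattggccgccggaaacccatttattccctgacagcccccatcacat

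The Sox2 stretch holds 27 CpG, more than 91.4% of all entries, and the first Pou5f1 stretch holds 8, beside a median of 6. A match is a description of the letters and not a binding site. DNA methylation at the 9 genes was not analysed here, since the bisulfite files use another genome build.

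Sall4 and Utf1, which act with Oct4 and Sox2 on chromatin, both fell, at different times. Sall4 (chr2:168748332-168767943, minus strand) encodes a zinc finger protein that recruits the NuRD complex. It stood at 6.02, 5.98 and 6.20 in serum, 6.05, 5.92 and 6.19 at 6 h, 4.59, 4.73 and 4.98 at 24 h, and 5.21, 4.91 and 5.18 at 72 h. The 6 h libraries overlap those of serum, and all libraries of 24 h and 72 h lie below both.

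Sall4 fell by 1.30 at 24 h (SE 0.13, adjusted p 1.6e-05), to 40.7% of serum, and by 0.97 at 72 h (SE 0.13, adjusted p 0.000133). Its change at 6 h was -0.01 (95% interval -0.31 to 0.28). The 72 h level was 0.33 above that of 24 h (adjusted p 0.0853), which did not pass the threshold. Gm14261, which overlaps Sall4 on the other strand, was listed no higher than -0.07 in any library.

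Utf1 (chr7:139943789-139945112, plus strand) encodes a chromatin protein of undifferentiated cells and is a known target of Oct4 and Sox2. It stood at 7.79, 7.71 and 7.89 in serum, 5.94, 5.99 and 5.91 at 6 h, 3.45, 3.84 and 3.84 at 24 h, and 4.50, 4.29 and 4.29 at 72 h. The 4 groups do not overlap. Utf1 was the third most abundant core gene in serum and the eighth at 24 h.

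Utf1 was thus 3.61-fold lower than serum at 6 h (log2 change -1.85, SE 0.12, adjusted p 2.79e-06). At 24 h it was 17.0-fold lower (-4.09, SE 0.12, adjusted p 6.94e-09), rank 11 from the largest fall among 11376 tested genes. At 72 h it was 10.8-fold lower (-3.44, SE 0.12, adjusted p 5.31e-09). From 24 h to 72 h it rose by 0.65 (SE 0.12, adjusted p 0.00284), in a comparison in which 5 of the 9 core genes (3 higher, 2 lower) and 29.7% of all genes (15% higher, 14.7% lower) were called, and in which 6 of the 9 and 31.8% of all did not overlap. This rise missed the threshold when the fit held only the 6 libraries compared (adjusted p 0.0537). As a short gene, Utf1 moved against the trend with span, and with the trend removed its change at 24 h was -4.58.

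The stretch before Utf1 is shown for its run of GC boxes, 4 in the 250 bases before the RefSeq start, of which the 3 outside the gene of the deposited table appear here in capitals, the first 2 sharing 1 base.
Utf1, chr7:139943606-139943788, plus strand: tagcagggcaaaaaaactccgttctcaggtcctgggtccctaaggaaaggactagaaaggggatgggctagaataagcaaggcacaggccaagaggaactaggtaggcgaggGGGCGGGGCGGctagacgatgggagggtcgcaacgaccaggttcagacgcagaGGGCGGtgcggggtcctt

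Lin28a and Lin28b were both called lower at 24 h and again lower at 72 h than at 24 h. Lin28a (chr4:134003330-134018841, minus strand) stood at 6.69, 6.63 and 6.85 in serum, 6.30, 6.19 and 6.34 at 6 h, 5.13, 5.32 and 5.37 at 24 h, and 2.83, 2.83 and 2.78 at 72 h. The 4 groups do not overlap and each lies below the one before. Gm13061, on the other strand of Lin28a, was listed at -0.34 or lower.

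The change of Lin28a was -0.45 at 6 h (SE 0.10, adjusted p 0.0136), -1.45 at 24 h (SE 0.10, adjusted p 1.16e-06) and -3.91 at 72 h (SE 0.10, adjusted p 1.03e-09). At 72 h this was 15.1-fold lower than serum, rank 30 from the largest fall among 11376 tested genes. Between 24 h and 72 h alone Lin28a fell by 2.46 (SE 0.10, adjusted p 2.1e-07), rank 22. The small fall at 6 h missed the threshold under quantile normalisation (adjusted p 0.0691), without serum replicate 3 (0.0571) and without 6 h replicate 2 (0.0695).

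Lin28b (chr10:45376620-45470201, minus strand), the second gene of the pair, was the least abundant of the 9 in every group. It stood at 3.02, 2.92 and 3.05 in serum, 2.80, 2.71 and 2.84 at 6 h, 1.07, 1.19 and 1.90 at 24 h, and 0.48, 0.08 and 0.50 at 72 h. The groups do not overlap, and replicate 3 lies highest at 24 h.

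Lin28b changed by -0.21 at 6 h (adjusted p 0.61), by -1.61 at 24 h (SE 0.20, adjusted p 4.91e-05) and by -2.64 at 72 h (SE 0.20, adjusted p 1.14e-06), to 16.0% of its serum level. The SE is pooled over the 4 groups, and the group SD was 0.07 in serum and at 6 h but 0.45 at 24 h. Over all settings of limma the adjusted p at 6 h ran from 0.0774 to 0.818, so none called it. From 24 h to 72 h it fell by 1.03 (SE 0.20, adjusted p 0.00285). At the level of 72 h it exceeded 5.93% of the tested genes, and the number of reads behind it is unknown. With the span trend removed the changes were -1.14 at 24 h and -2.52 at 72 h.

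The stretches before Lin28a and Lin28b are shown because H3K9me2 was also measured there. That of Lin28b held none of the motifs searched and 6 CpG, and is printed whole. Lin28a held 1 SOX motif, at 96 bases before the start on the opposite strand, shown in capitals within 30 bases.
Lin28a, chr4:134018895-134018924, minus strand: ggggggttgggtCATTGTcttttagaattt
Lin28b, chr10:45470202-45470451, minus strand: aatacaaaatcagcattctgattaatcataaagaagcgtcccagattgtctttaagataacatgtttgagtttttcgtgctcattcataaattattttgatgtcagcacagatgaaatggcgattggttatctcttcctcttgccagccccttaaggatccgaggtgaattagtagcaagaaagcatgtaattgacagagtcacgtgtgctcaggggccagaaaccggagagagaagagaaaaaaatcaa

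LIN28 proteins act on let-7, whose 8 forms named a to g and i in the RefSeq table share a single seed (bases 2 to 8, in capitals), the part that pairs with target RNAs. Mature microRNAs were not measured in these libraries. The forms a and g are shown for their shared seed.
let-7a-5p: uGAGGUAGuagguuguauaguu
let-7g-5p: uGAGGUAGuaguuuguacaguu

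Dppa2 and Dppa4 are neighbours on chromosome 16, 16.2 kb apart on the plus strand, and their proteins work as a pair. Both were already low at 6 h. Dppa4 (chr16:48283735-48294292) stood at 5.76, 5.81 and 5.67 in serum, 4.51, 4.45 and 4.29 at 6 h, 4.79, 4.65 and 4.46 at 24 h, and 4.87, 4.98 and 5.03 at 72 h. All libraries in 2i lie below serum, and those of 6 h and 24 h overlap.

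Dppa2 (chr16:48310477-48319723) stood at 6.00, 5.86 and 5.77 in serum, 4.74, 4.71 and 4.43 at 6 h, 4.28, 4.18 and 4.15 at 24 h, and 5.30, 5.04 and 5.16 at 72 h. Its 4 groups do not overlap, with the lowest at 24 h.

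Dppa4 changed by -1.33 at 6 h (SE 0.11, adjusted p 1.47e-05), -1.11 at 24 h (SE 0.11, adjusted p 1.37e-05) and -0.78 at 72 h (SE 0.11, adjusted p 0.000172). Dppa2 changed by -1.25 at 6 h (SE 0.12, adjusted p 3.2e-05), -1.68 at 24 h (SE 0.12, adjusted p 1.05e-06) and -0.71 at 72 h (SE 0.12, adjusted p 0.000485). At 6 h Dppa4 and Dppa2 held ranks 113 and 125 from the largest fall among 11376.

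From 24 h to 72 h Dppa2 rose by 0.97 (SE 0.12, adjusted p 0.000203). Dppa4 rose by 0.33 (SE 0.11, adjusted p 0.0471), a call that was lost in every fit that left out 1 library (adjusted p 0.0554 to 0.139) except that without 24 h replicate 1 (0.0310). The level of Dppa2 minus that of Dppa4 was -0.51, -0.48 and -0.31 at 24 h and between 0.05 and 0.43 in the other 9 libraries. The difference between the genes was not tested.

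Dppa5a (chr9:78367052-78368177, minus strand), the most abundant core gene in every group, was the gene called higher. It stood at 9.28, 9.33 and 8.74 in serum, 9.28, 9.17 and 8.77 at 6 h, 11.30, 10.91 and 9.89 at 24 h, and 10.28, 10.95 and 9.85 at 72 h. The 6 h libraries overlap serum, and all those of 24 h and 72 h lie above it, with a wide spread.

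Dppa5a rose by 1.58 at 24 h (SE 0.36, adjusted p 0.00285) and by 1.24 at 72 h (SE 0.36, adjusted p 0.0134), after a change of -0.05 at 6 h (adjusted p 0.97). It is the shortest core gene, at 1126 bases, and its order among the replicates is that of the lead of short genes. With the trend removed the rises were 1.07 (adjusted p 0.0016) and 1.01 (adjusted p 0.0026), and under quantile normalisation 0.64 (adjusted p 0.0153) and 0.76 (adjusted p 0.00756). The call at 72 h was lost without serum replicate 3 (adjusted p 0.0571) and without 72 h replicate 2 (0.0561). A near copy, Dppa5b, was listed at 3.61, 3.96 and 3.94 in serum and at 6.38, 5.96 and 4.54 at 24 h, so reads shared by the copies cannot be told apart.

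Since the values are corrected for gene length, the 9 genes could be ordered. In serum the order from high to low was Dppa5a, Pou5f1, Utf1, Sox2, Lin28a, Sall4, Dppa2, Dppa4 and Lin28b, from a mean of 9.12 to 3.00. Replicates of Sall4 and Dppa2 and of Dppa2 and Dppa4 overlapped, and the other neighbours did not. At 72 h the order was Dppa5a, Pou5f1, Sox2, Dppa2, Sall4, Dppa4, Utf1, Lin28a and Lin28b, from 10.36 to 0.35. There Dppa2 overlapped with Sall4 and Sall4 with Dppa4, and the other neighbours did not overlap. Lin28a moved from above 96.8% of the tested genes in serum to above 49.4% at 72 h.

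For each core gene that changed by 1 or more, the tested genes with the closest profile were found by Euclidean distance over the 12 libraries, each profile set to its own serum mean. Esrp1, a splicing regulator of epithelial cells, was closest to Lin28a at a distance of 0.56, where the median gene lay at 7.42, and it changed by -0.48, -1.37 and -3.96 at the 3 times. Crmp1 at 1.11 and Celf4 at 1.56 followed. The closest genes to Utf1 were Zfp532, Lphn2 and Ccnd2, a D-type cyclin, at 1.71, 1.73 and 1.99, beside a median of 9.98. Ptprn, Rnf165 and Syt11 were closest to Lin28b, at 0.77 to 0.83. Rsc1a1, Nr6a1 and Mtss1 were closest to Sall4, at 0.30 to 0.33. Cited2 was closest to Dppa2 at 0.78, Cdk17 to Dppa4 at 0.42 and Nsmce1 to Dppa5a at 0.34.

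The partners and targets of the core genes were described by 7 lists. Counts below are over tested genes, and the background shares are those given above. Several genes named below follow the lead of short genes in the order of their replicates at 24 h and at 72 h. Gatad2b, Chd4, Trim71 and Dnmt3b were lowest where that lead was largest. Nanog, Spp1, Mbd2 and Dppa3, among others, were highest there. The part of the trend with span in their changes was not tested.

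Of 9 genes with known Oct4 and Sox2 sites, 2 were called higher and 3 lower at 6 h, 6 and 2 at 24 h, and 5 and 3 at 72 h. Their median change at 72 h was 0.62. Nanog, a homeodomain factor of the same network, rose by 1.72 (SE 0.16) and Spp1, the secreted protein osteopontin, by 1.37 (SE 0.20). Lefty1, an inhibitor of Nodal signalling, was called higher at 6 h (1.34, SE 0.23) and at 24 h (1.99, SE 0.23). At 72 h Lefty1 stood 1.41 (SE 0.23) below serum, and Nr0b1 0.92 (SE 0.18) below. These genes thus moved in both directions.

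Of 14 genes around Lin28 and let-7 (processing enzymes and let-7 targets), 2 were called lower at 6 h, 1 higher and 9 lower at 24 h, and 1 higher and 7 lower at 72 h, with a median of -0.53 at that time. Myc fell by 5.79 (SE 0.11, adjusted p 9.67e-11) at 72 h, and had already fallen by 3.93 (SE 0.11) at 6 h. Trim71, a let-7 target and RNA-binding protein, fell by 2.09 (SE 0.34) at 72 h. Dis3l2, the exonuclease that degrades let-7 precursors tagged through LIN28, rose by 1.04 (SE 0.11).

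Of 12 subunits of NuRD, the deacetylase complex that Sall4 binds, 0 were called at 6 h, and 1 was higher and 6 lower at both 24 h and 72 h. Gatad2b fell by 1.33 (SE 0.29) and Chd4, the remodelling ATPase, by 1.29 (SE 0.29) at 72 h, and Mbd2 rose by 0.80 (SE 0.11). Of 9 genes reported to need Dppa2 or Dppa4, 8 were tested and none was called lower at any of the 3 times. At 72 h 2 were higher, Hormad1 by 1.02 (SE 0.21) and Tcstv1 by 0.96 (SE 0.26).

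Of 25 relatives of the core genes in the POU, SOX, SALL and DPPA families and among the kin of Dppa5a, 16 were tested, and 3 were called higher and 10 lower at 72 h, with a median of -0.78. Dppa3 rose by 2.02 (SE 0.26) and Sox15 by 0.71 (SE 0.16). Pou3f1, a POU factor of the post-implantation epiblast, fell by 5.57 (SE 0.19), and Sox11 fell by 3.99 (SE 0.24).

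All 11 naive factors, genes of the preimplantation state, were tested, and 8 were called higher and 2 lower at 72 h, with a median of 1.33. Prdm14 rose most, by 2.37 (SE 0.14), and Zfp42 fell by 0.67 (SE 0.13). Of 10 formative and primed genes, which mark the step after implantation, 9 were tested and 8 were called lower at 72 h, with a median of -2.37. Dnmt3b, a de novo DNA methyltransferase, fell by 4.19 (SE 0.14). Nanog, Zfp42, Nr0b1, Pou3f1 and Sox4 stand in more than 1 list. The changes of Nanog, Nr0b1 and Pou3f1, given above, are also among the largest of these naive and primed lists.

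**Figure D3:**
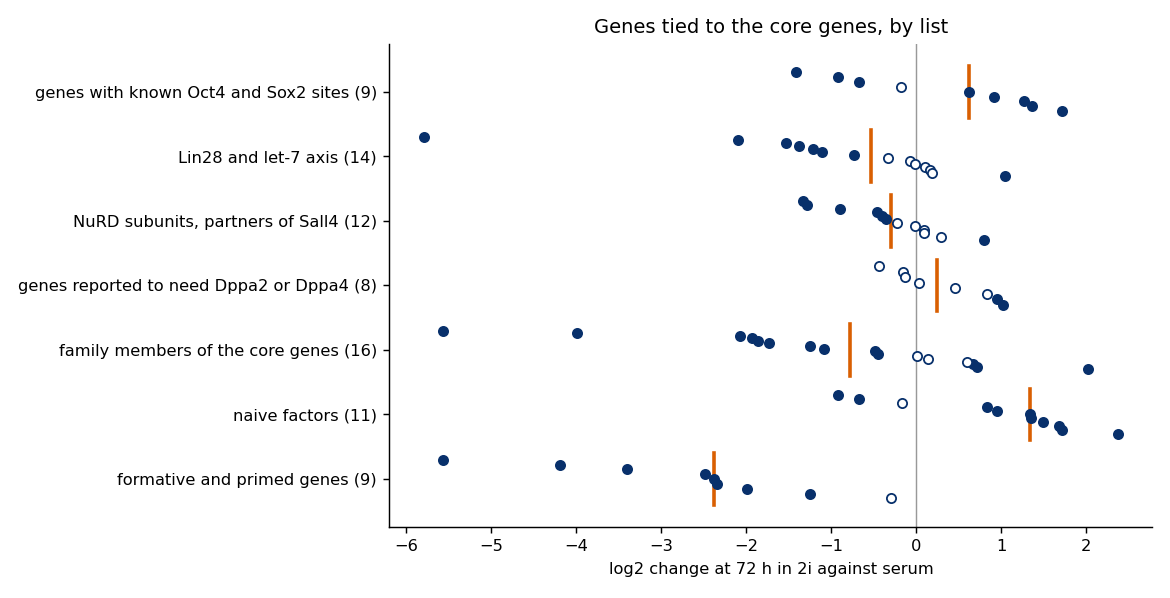
Log2 change at 72 h in 2i against serum (horizontal axis) of the tested genes of 7 lists, with the number tested in parentheses. Filled points passed an adjusted p under 0.05, open points did not, and the orange line is the median of a list. The medians run from -2.37 for formative and primed genes to 1.33 for naive factors.

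In serum, H3K9me2 lay below the median of all genes at 8 of the 9 core genes, all but Lin28b. The bound libraries held between 14396552 and 19279328 reads and the inputs between 15878750 and 23785128. In the 36 bins over the 8 genes other than Lin28b, they gave 84 and 64 reads in serum, 85 and 72 at 24 h, and 39 and 62 in LT2i, beside 682, 847 and 510 reads in the inputs. A count of 0 allows up to 3 reads, and intervals on reads cover counting error only.

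Enrichment is given as the share of bound reads divided by the share of input reads. In serum its mean over the 2 replicates ran from 0.0237 at Sox2 and 0.0244 at Utf1 through 0.0784 at Lin28a, 0.0827 at Sall4, 0.0894 at Pou5f1 and 0.0914 at Dppa5a to 0.204 at Dppa2 and 0.228 at Dppa4, beside a median of 0.515 over the 22131 genes tested. Sox2 exceeded 0.755% of these genes, and Dppa4 25.5%. Lin28b, at 0.524 and 0.522, lay near the median of all genes, and the 8 others lay below it. Dppa4 had a mean of 0.389 at 24 h and 0.276 in LT2i, where it exceeded 41.8% and 50.4% of genes, and Dppa2 had 0.226 and 0.190.

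At 24 h limma called 0 of the 9 genes and 0 of 22131 genes (0%), while 2 of the 9 and 3788 of all genes (17.1%) had an unadjusted p under 0.05. In simulated data this fit recovered 32 of 100 changes of 1 on the log2 scale, so a lack of calls does not show a lack of change. Lin28b gave 460 and 440 reads in serum and 275 and 304 at 24 h, and its change was -0.26 (SE 0.11, adjusted p 0.31). Utf1, with 1 and 0 reads in serum and 2 and 4 at 24 h, was too thinly covered for a statement.

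In LT2i 54.5% of all genes were called, 49.7% lower and 4.8% higher, and the median change was -0.59. Of the 9 core genes 1 was called. Sall4 gave 22 and 14 reads in serum, 15 and 15 at 24 h, and 2 and 5 in LT2i, and its change was -0.63 (SE 0.19, adjusted p 0.0373). The rate of reads in LT2i was 0.217 of that in serum (exact 95% interval 0.0817 to 0.495). The log2 change is smaller because an empty bin counts as 0.9 reads, and with empty bins at 0 it was -2.07, a setting added after the data were seen. The call did not hold in a fit of the 4 libraries compared or without either 24 h library (adjusted p 0.0664 each), without serum replicate 1 (0.153) or without LT2i replicate 1 (0.13). When each library was centred on its median gene, 8132 genes were called higher and 2240 lower, and the median change of all genes was 0.32. The change of Sall4 was then 0.28 (adjusted p 0.27), and Lin28a and Lin28b were called higher, by 0.93 and 1.21. Sox2 was also called in that setting (1.12), but with 1 and 1 reads in serum and 1 and 0 in LT2i (rate ratio 0.559, exact 95% interval 0.00948 to 10.7) it was too thinly covered for a statement.

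Lin28b gave 495 and 478 reads in LT2i, and its change over the gene was 0.30 (SE 0.11, adjusted p 0.0678), which did not pass. Its enrichment of 0.653 exceeded 69.7% of genes in LT2i, compared with 50.6% in serum. The median of all genes was 0.515 in serum and 0.272 in LT2i.

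**Figure D4:**
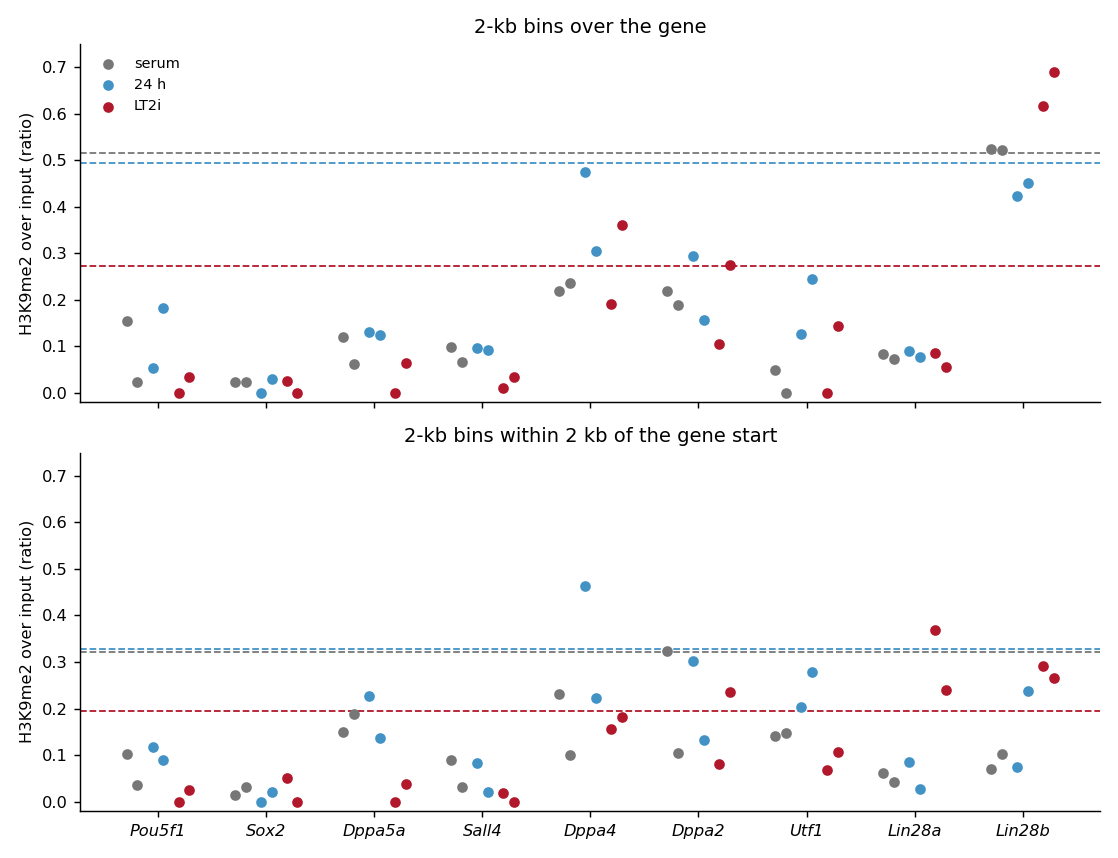
H3K9me2 over input (vertical axis, ratio of the share of bound reads to the share of input reads) of each core gene, over the gene (top) and within 2 kb of its start (bottom). Points are the 2 bound libraries of serum, 24 h and LT2i, and dashed lines are the medians of all tested genes in the same colours. In LT2i the starts of Lin28a and Lin28b lie above the dashed line of LT2i, which lies below those of serum and 24 h.

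Within 2 kb of the gene starts, an alternative region, 3 of the 9 genes were called in LT2i, where 21.4% of 22947 genes were called, 2.23% higher and 19.2% lower. Those called higher, as a share of reads and not as an amount of the mark, were Lin28a and Lin28b. The bins at the Lin28a start held 3 and 2 reads in serum, 3 and 1 at 24 h, and 16 and 9 in LT2i. Those at the Lin28b start held 5 and 7 reads in serum, 3 and 10 at 24 h, and 14 and 11 in LT2i. In both genes the LT2i libraries lie above those of serum.

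The change at the Lin28a start was 1.91 (SE 0.37, adjusted p 0.0118), and the rate of reads was 5.59 times that of serum (exact 95% interval 2.1 to 18.7). At the Lin28b start it was 1.56 (SE 0.41, adjusted p 0.0320) and 2.33 times (1.13 to 5.09). The inputs at the Lin28b start held 72 reads in serum and 42 in LT2i, and from bound reads alone its change was 1.10 and did not pass (adjusted p 0.0943), while that of Lin28a was 1.83 (adjusted p 0.0134). Of the 25 LT2i reads at Lin28a, 13 and 6 fell in the bin centred at -2.16 kb from the start. Farther out, in the bin at -8.16 kb, log2 H3K9me2 over input went from -0.17 and -0.61 in serum to -2.69 and -3.47 in LT2i. The bins upstream did not all move alike. At -4.16 kb the values were -0.30 and -1.66 in serum and -2.14 and -2.34 in LT2i. At -12.16 kb they were -1.57 and -0.51 in serum and -1.81 and -0.60 in LT2i.

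With each library centred on its median gene, 3727 genes were called higher around the start and 1078 lower, with a median change of 0.31. The changes were 2.60 at Lin28a, 2.25 at Lin28b and -0.71 at Dppa5a, the last with an adjusted p of 0.157.

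Dppa5a was the gene called lower around its start. Its bins held 5 and 6 reads in serum, 8 and 5 at 24 h, and 0 and 1 in LT2i, and the change was -1.40 (SE 0.33, adjusted p 0.0210). The bin centred at -2.82 kb from the start held 3 and 5 reads in serum and 0 and 0 in LT2i. The nearer bin, at -0.82 kb, held 2 and 1 in serum and 0 and 1 in LT2i. The counts behind these 3 calls are small. When 1 serum or LT2i library was left out, the changes ran from 1.56 to 2.26 at Lin28a, from 1.41 to 1.71 at Lin28b and from -1.56 to -1.24 at Dppa5a, while the calls over all genes went from 4907 to between 1190 and 2500. Without serum replicate 1 or without LT2i replicate 1 none of the 3 passed, with adjusted p from 0.058 to 0.135, and without serum replicate 2 or LT2i replicate 2 only Lin28a passed (0.0433 and 0.0405). The RNA was taken up to 72 h and the H3K9me2 at 24 h and in LT2i, so the 2 measures share only serum and 24 h.

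**Figure D5:**
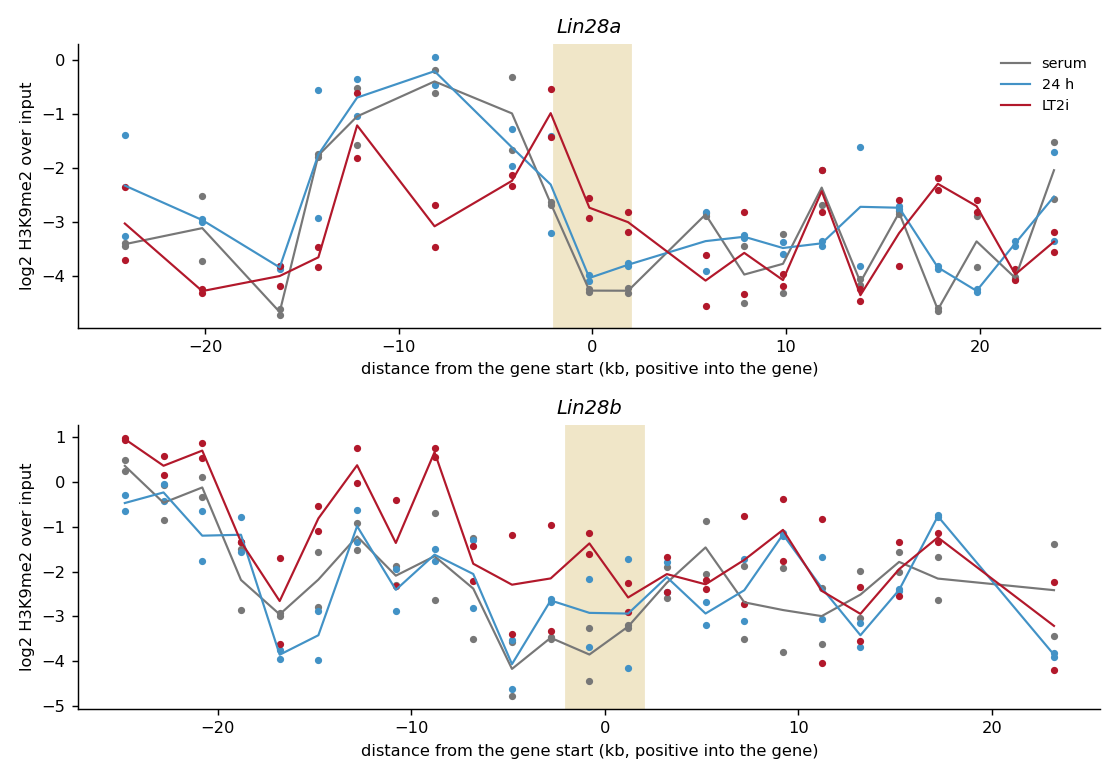
Log2 H3K9me2 over input (vertical axis) in 2-kb bins by distance from the gene start in kb (horizontal axis, positive into the gene) for Lin28a and Lin28b. Points are libraries, lines the means of 2 replicates, and the shaded band marks 2 kb to each side of the start. In LT2i the bin at -2.16 kb from the Lin28a start stands above serum while that at -8.16 kb stands below. The bin at -12.16 kb overlaps serum.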

How the data were processed

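RNA-seq (12 libraries, TruSeq v2 kit, single-end, without strand) and H3K9me2 ChIP-seq (9 libraries, antibody ab1220) of E14 ESCs were used. The deposited RNA-seq table holds log2 expression, scaled for length and depth, with each replicate in its own column. The deposited ChIP-seq table holds log2 read numbers in bins of 2 kb, brought to the depth of the largest library, with an empty bin at 0.9 reads. Undoing the scaling gave whole reads within 2% for 100% of values. That tolerance is met by any value in bins with many reads, so it checks only bins with few. The submitters' processing notes name Trim Galore 0.3.5, TopHat2 2.0.11, Bowtie2 and Bismark 0.12.3. How reads were counted is not given in these sources. Coordinates fit GRCm38. Bisulfite files (NCBIM37) were not used.

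RNA values were tested with limma 3.58.1 in R 4.3.3, all 12 libraries in one fit, Benjamini-Hochberg adjustment over 11376 genes (mean of 0 or more, no pseudocount). For H3K9me2, bins overlapping a gene were summed on the linear scale, and log2 bound minus input was tested over 22131 genes with 20 or more input reads. The 1 input of each medium adds an error shared by its bound libraries, which the SE and p-values do not hold. Tests were checked on simulated data with 100 changes of 1 and 100 of 2 on the log2 scale. The RNA fits recovered 62 to 76 of the former and 94 to 100 of the latter. The H3K9me2 fit recovered 32 and 65 at 24 h, and 23 and 66 in LT2i. Read-rate intervals are exact conditional binomial intervals. Python 3.11.15, SciPy 1.17.1 and matplotlib 3.10.9 were used.

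All 9 core genes are named. Of each list the text names the 2 largest called rises and falls at 72 h, where a gene of more than 1 list is given once. The members and lists were chosen with earlier results of these data known. Alternatives were quantile and median scaling, removal of the span trend, filters, a pseudocount of 1, fewer libraries, a replicate block and a change of 1 or more. The labels do not say whether replicate numbers pair the libraries. Deviations of RNA libraries with the same number correlated at 0.40, 0.26 and 0.66 for serum with 6 h. For serum with 24 h they gave 0.33, 0.13 and 0.54, and with 72 h 0.05, 0.38 and 0.47. For 24 h with 72 h they gave -0.32, 0.63 and 0.85. These values do not settle pairing, and the part of the trend with span in them was not tested. For H3K9me2 they were 0.003 and 0.07.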

Additional observations from a re-analysis of the deposited data

Results flagged for a closer look

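Of the 9 core genes, 5 had a change from serum that differed between 24 h and 72 h in the direct limma comparison of these times. Lin28a lay lower at 72 h than at 24 h by -2.46 and Lin28b by -1.03 on the log2 scale. Utf1 lay higher by 0.65, Dppa2 by 0.97 and Dppa4 by 0.33. The 2 comparisons with serum share the serum libraries, and the share of all genes called between these times was 29.7%. No group held the 4 samples needed for a search for outlying libraries.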

How the results depend on the processing

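Of the 9 core genes, a required change of 1 or more (log2) left 3 called at 6 h, 4 at 72 h and 2 between 24 h and 72 h, and a fit of the 6 libraries compared left 3 between those times. Over all genes, the count at 6 h went from 1622 to 871 with a filter at a mean of 2, 3197 with 6 libraries and 464 with a change of 1 or more. Leaving out 1 of the libraries compared took it as low as 1030. The count was 7124 at 24 h and 2848 with a change of 1 or more, 5724 at 72 h with 3796 and 2036 under the filter at 2 and the change of 1, and 6774 for 24 h against 6 h with 2310. Between 24 h and 72 h it was 3376, with 2092 under the filter, 1154 with 6 libraries, 840 with a change of 1 or more, 5212 with the replicate block, 6175 without 24 h replicate 3, 2181 without 24 h replicate 2 and 1984 without 72 h replicate 1. H3K9me2 calls in LT2i were 12072 over genes and 4907 around starts, the latter 1190 and 2500 without serum replicate 1 or 2 and 2023 and 1567 without LT2i replicate 1 or 2. H3K9me2 over the gene in LT2i gave 3 called core genes under median centring, 3 around the start, 0 in the fit of 4 libraries and 0 with the replicate block, and 0 to 2 when 1 library was left out. Around the start, leaving out 1 library gave 0 to 3.

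Changes that turned sign, none called in the main fit except Sall4 in LT2i, were as follows. Under quantile normalisation Sall4 at 6 h was 0.038, Pou5f1 -0.49 at 24 h, 0.11 for 72 h against 24 h and -0.24 for 24 h against 6 h, and Dppa5a 0.12 for 72 h against 24 h. With the span trend removed Pou5f1 at 24 h was -0.082. Leaving out 1 library gave -0.078 to 0.053 for Sall4 and -0.23 to 0.10 for Dppa5a at 6 h, -0.078 to 0.048 for Sox2 at 24 h and -0.38 to 0.16 for Pou5f1 at 72 h. For H3K9me2 at 24 h it gave -0.19 to 1.08 for Pou5f1 and -0.27 to 0.53 for Dppa2, and Lin28b was 0.70 around the start. In LT2i median centring gave 0.67 for Pou5f1, 0.28 for Sall4, 0.67 for Dppa2 and 0.26 for Dppa5a, beside a median of 0.32 for all genes. The start of Utf1 gave -0.70. Lin28a was -0.061 from bound reads alone and -0.20 with empty bins at 0. Leaving out 1 library in LT2i gave -0.87 to 0.40 for Pou5f1, -0.35 to 1.60 for Utf1, -0.13 to 0.17 for Lin28a, -0.96 to 0.47 for Dppa2 and -0.19 to 0.69 for Dppa4. The cause was not tested.

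With the replicate block no call of a core gene changed at 6 h or 24 h. In that setting Sall4 was called higher at 72 h than at 24 h (adjusted p 0.0267) and lost its H3K9me2 call (0.0674). Whether the numbers pair the libraries is not known. The start region in further settings, the 24 h against 6 h comparison and empty bins at 0 were chosen after seeing the data. A count model of the H3K9me2 reads was not run. RNA depth is unknown. Low read numbers limit H3K9me2 over all core genes but Lin28b, and around the starts of all of them, Lin28b included.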
